A study of Mus musculus with 3 samples.

Results

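The heat shock protein genes described here were 10 genes chosen by name out of the 32285 genes counted in mouse back skin. They comprised 4 genes that heat and other stresses are known to induce (Hspa1a, Hspa1b, Dnajb1 and Hsph1) and 5 genes that cells transcribe without stress (Hspa8, Hsp90aa1, Hsp90ab1, Dnaja1 and Hspa5). The last was Hspb1, a small heat shock protein that was counted here apart from both sets, whether or not stress induces it. All 10 were found in the 3 libraries by the same gene identifiers. Single-cell RNA was read by 10x Genomics 3' chemistry, which counts each captured transcript once as a unique molecular identifier (UMI). The animals were wildtype, untreated Krt14-H2B-GFP mice, a line in which the Krt14 promoter marks epithelial nuclei. There was 1 library of P38 (postnatal day 38, male, hair follicles in catagen), 1 of 6 months (female, mostly anagen) and 1 of 12 months (male, mixed telogen and anagen). The study describes flow sorting by surface proteins and GFP for its ages, with only GFP-positive epithelial cells taken at P38, while the submitters' protocol describes dissociated total back skin and no sort. Age, sex, hair cycle stage, depth and sort therefore cannot be told apart, and no difference between ages has a replicate behind it.

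Kept cells had over 200 but below 5000 genes and a mitochondrial share under 15%. This left 2109, 3502 and 3240 cells at P38, 6 months and 12 months, with 24698719 to 38910431 UMIs a library. The median kept cell had 16170 UMIs in the P38 library, 1019 UMIs in the 6 months library, which thus stood apart in depth, and 11438.5 UMIs in the 12 months library. Cells were assigned to classes by marker genes, and 1195, 1471 and 1781 cells passed a gate. No class had more markers of another class than of its own among its 10 leading genes. The IFE basal-like class (interfollicular epidermis) was led by Serpinb2 and also held Ptgs2, with Thbs1 as its only own marker there. The HF-SC-like class (hair follicle stem cells) was led by Krt24, its own marker, and also held Tgm5, a marker of the Niche-like class. At 6 months, 2031 ungated cells had a median of 587 UMIs and 383 IRS and hair shaft-like cells one of 576 UMIs. The median IFE basal-like cell had 18712.5, 15637 and 13591 UMIs at P38, 6 months and 12 months. The median HF-SC-like cell had 13405, 10786 and 6862 UMIs, so that in these classes 6 months was not the shallowest library. Fibroblast-like cells numbered 1 at P38 and T cell-like cells 0, so those classes entered comparisons from 6 and 12 months only. The 6 and 12 months libraries shared 81 cell barcodes, against 1 and 3 for the pairs with P38, and results that changed without those cells are named.

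Heat shock proteins are chaperones: they bind unfolded stretches of other proteins, prevent aggregation and help folding. HSP70 proteins work in an ATP cycle that J proteins start and HSP110 proteins reset, HSP90 proteins take over late folding of kinases and receptors, and small heat shock proteins hold unfolded proteins without ATP. The cytosolic stress response is run by heat shock factor 1, which binds inverted repeats of the unit GAA in promoters, while Hspa5 in the endoplasmic reticulum answers to the unfolded protein response. In skin, Hspb1 is known as a keratinocyte protein of the differentiating layers.

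Hspa1a and Hspa1b encode near-identical cytosolic HSP70 proteins from neighbouring genes on the minus strand of chromosome 17 (GRCm38, the build of the mm10 files). Hspa1a lies at chr17:34969190-34972156 and Hspa1b at chr17:34956436-34959238, with 9951 bases between them. Their 300 bases around the start site (RefSeq, GRCm38.p6) were 98.7% identical. Along the whole transcripts identity was 84.3%, and over the last 500 bases, which 3' reads favour, it was 46.8%. Levels of these paralogs are uncertain to the extent that reads fell in their shared part. Promoters of 250 bases before and 50 bases after the start were searched for GAANNTTC or TTCNNGAA, each of which reads the same on both strands, and for the ER stress element (CCAAT, 9 bases of any kind, CCACG; both strands). RefSeq promoters were matched for 7 of the 10 genes; Hspa8, Hsp90aa1 and Hsp90ab1 are named only. The stretches below are shown because they hold the matches in 3 of the inducible genes, in Hspb1 and in Hspa5, with the matched letters in capitals.
Hspa1a, chr17:34972197-34972286, minus strand: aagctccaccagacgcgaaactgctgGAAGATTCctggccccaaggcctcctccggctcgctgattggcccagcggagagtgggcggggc
Hspa1b, chr17:34959279-34959368, minus strand: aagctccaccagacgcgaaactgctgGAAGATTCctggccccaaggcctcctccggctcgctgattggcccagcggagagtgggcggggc
Hspb1, chr5:135887789-135887878, plus strand: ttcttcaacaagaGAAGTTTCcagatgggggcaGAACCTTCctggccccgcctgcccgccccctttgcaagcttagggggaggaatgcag
Hsph1 upstream, chr5:149636354-149636378, minus strand: gtagaatctTTCTCGAAggctcgag
Hsph1 downstream, chr5:149636287-149636307, minus strand: ctgcagaTTCTGGAAAGTTCt
Hspa5, chr2:34772021-34772047, plus strand: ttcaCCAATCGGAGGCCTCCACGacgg

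The pair began 104 bases upstream of the start in both Hspa1a and Hspa1b, and 117 and 97 bases upstream in Hspb1. Hsph1, the HSP110 exchange factor, had a pair 33 bases upstream of its first start and overlapping pairs 36 and 41 bases downstream, which together form 3 alternating units (GAA and TTC in turn). Dnaja1 had a pair 124 bases upstream of the first of its 3 listed starts, and Dnajb1 had none in this window. A pair of either form was in 15.1% of all 32851 promoters, and 3 alternating units were in 0.603%. Hspa5 held the ER stress element 65 bases upstream, a motif found in 0.119% of promoters. These matches are letters in a window and no binding was measured. The other genes lie apart from each other: Dnaja1 at chr4:40722150-40737149, Dnajb1 at chr8:83608193-83612653, Hspa8 at chr9:40800984-40810087, Hspa5 at chr2:34771970-34777547 and Hspb1 at chr5:135887919-135889563 on the plus strand. Hsph1 at chr5:149614287-149636376, Hsp90aa1 at chr12:110690605-110702728 and Hsp90ab1 at chr17:45567775-45573271 lie on the minus strand.

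Over all kept cells, the 10 genes took 17119 CPM (UMIs of a gene per 1000000 UMIs of the summed cells) at P38, 12760.4 CPM at 6 months and 7409 CPM at 12 months. Because a 3' library counts a transcript once whatever its length, CPM of different genes are compared here without dividing by length. Hspb1 was the most abundant at P38 with 6366 CPM, and stood at 3123 CPM at 6 months and 1304 CPM at 12 months. Hsp90ab1, the constitutive cytosolic HSP90, was the steadiest, with 2135, 2268 and 2113 CPM. The remaining constitutive genes were all lowest at 12 months: Hspa8, the constitutive HSP70, had 2793, 1796 and 1457 CPM. The inducible sum stood at 3472 CPM at P38 (95% counting interval 3452 to 3491). It stood at 3633 CPM at 6 months (interval 3609.7 to 3657), and only 1001 CPM was left at 12 months (interval 991 to 1011). By gene, Hspa1a had 1351, 1349 and 241 CPM, Hspa1b 1114, 1700.0 and 355 CPM and Hsph1 72.6, 79.8 and 16.5 CPM, so that each was lowest at 12 months. Dnajb1, the J protein that starts the HSP70 cycle, had 934, 505 and 389 CPM. Intervals throughout are exact Poisson or binomial bounds and cover counting error only.

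The HF-SC-like cells of P38 carried the highest inducible level of all classes in any library. Their inducible sum was 10172 CPM at P38 (10078 to 10267, 327 cells), 4225 CPM at 6 months (4129 to 4323, 149 cells) and 956 CPM at 12 months (903 to 1012, 162 cells). Hspa1a alone had 4218, 1326 and 202 CPM, and Hspa1b 3649.7, 2077 and 449 CPM. Dnajb1 had 2102, 741 and 294 CPM and Hsph1 202, 81.2 and 11.3 CPM in the same cells. All 4 thus kept the order P38, 6 months, 12 months, and none of their intervals met between libraries. Hspb1 followed the same order with 13416, 4294 and 1113 CPM. At P38 the 10 genes together took 34792 CPM of the HF-SC-like cells. Among the constitutive genes of these cells, Hspa8 had 5189, 2239 and 1184 CPM, Hsp90aa1 2120.0, 865 and 638 CPM and Dnaja1 791, 526 and 328 CPM. Hsp90ab1 had 2525, 2091 and 1854 CPM and Hspa5 578, 530.1 and 393 CPM, the narrowest ranges of the 10 genes here.

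**Figure D1:**
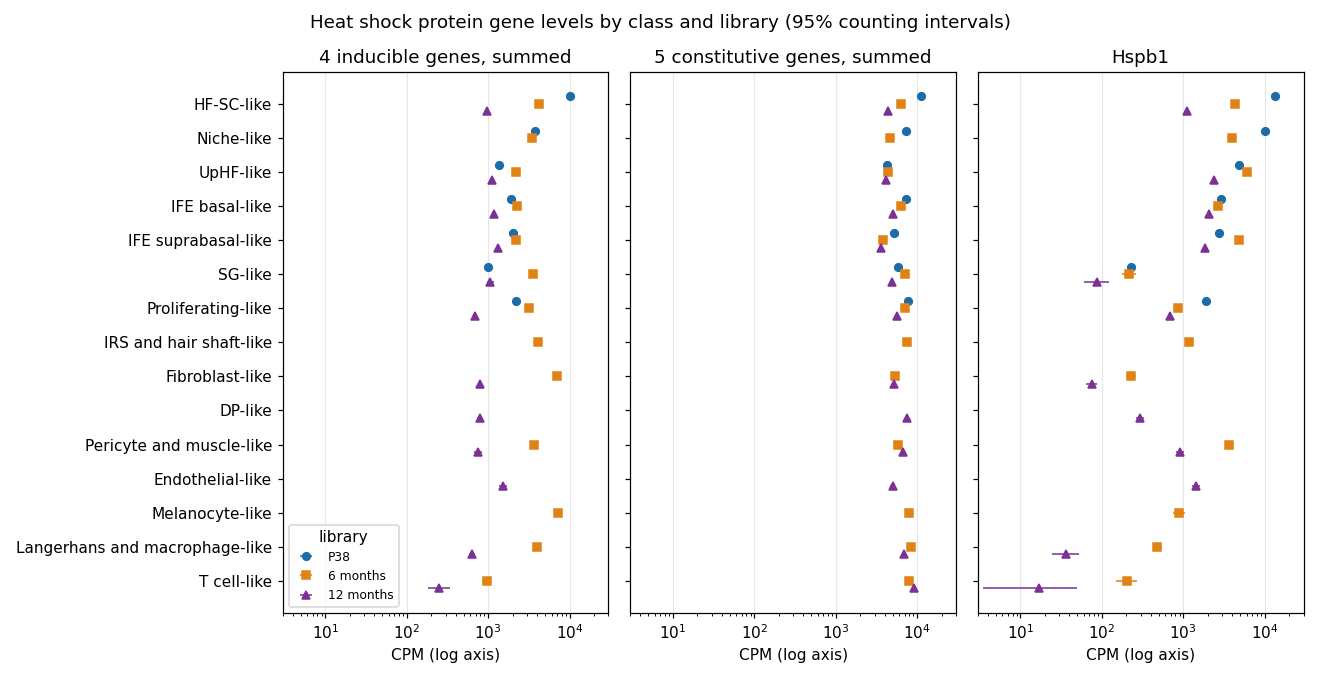
Summed CPM (log axis) of the 4 inducible genes, the 5 constitutive genes and Hspb1 in each class with at least 20 cells, with 1 point a library and 95% counting intervals. The inducible points of HF-SC-like cells spread between 956 and 10172 CPM, while constitutive sums stayed between 3592 and 11204 CPM over all classes.

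IFE basal-like cells of the same libraries held an inducible sum of 1915, 2264 and 1186 CPM, a much narrower range. Hspa1a had 574, 647 and 213 CPM there, Hspa1b 473, 1071 and 316 CPM and Dnajb1 829, 514 and 644 CPM. Thus the order of the libraries was not that of the HF-SC-like cells. UpHF-like cells had an inducible sum of 1369, 2169.8 and 1115 CPM and IFE suprabasal-like cells one of 2026, 2169 and 1315 CPM, both highest at 6 months. Proliferating-like cells had 2218, 3156 and 689 CPM and SG-like cells 985, 3534 and 1066 CPM at the same ages. The median SG-like cell had 22436.5 UMIs at P38 but only 660 at 6 months and 697 at 12 months, and free RNA was not subtracted. Other classes were high at 6 months: the inducible sum was 7293 CPM in 20 Melanocyte-like cells, and in Fibroblast-like cells it was 789 CPM at 12 months (199 cells), against 6917 CPM at 6 months (96 cells). Hspa1a and Hspa1b made up most of it in the 6 months Fibroblast-like cells, with 2991 and 3634 CPM. The other end was held by T cell-like cells, with 953 CPM (6 months) and 252 CPM (12 months). At 6 months 51 T cell-like cells held 75 UMIs of Hspa1a, and at 12 months none in 39 cells, which allows up to 16.8 CPM (3 counts). Of those at 6 months, after thinning to 3000 UMIs, 95.7% came from the top 10% of 43 cells, and 16.3% of cells had any.

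Hspb1 had a class pattern of its own. It was high in the follicle and epidermal classes, with 4789, 6060.3 and 2388 CPM in UpHF-like cells (upper hair follicle) and 10129 and 3981 CPM in Niche-like cells at P38 and 6 months. IFE suprabasal-like cells had 2723, 4895 and 1864 CPM, against 2894, 2667 and 2065 CPM in IFE basal-like cells. Hspb1 was thus higher in the suprabasal-like class only at 6 months. Some other classes also held it: Pericyte and muscle-like cells had 3685 CPM at 6 months and 911 CPM at 12 months, and Endothelial-like cells 1435 CPM at 12 months, above the 1113 CPM of HF-SC-like cells there. SG-like cells (sebaceous gland), although epithelial, had only 227, 218 and 87 CPM. Fibroblast-like cells had 228 and 75.1 CPM at 6 and 12 months while T cell-like cells had 203 and 16.8 CPM. Free RNA was not subtracted, and its part in the low values of these classes was not tested.

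The inducible genes were set against the constitutive genes as the log2 of their summed UMIs, a ratio that does not depend on the library total. The constitutive sum includes Hsp90aa1, the stress-responsive isoform of cytosolic HSP90. Over all kept cells the P38 library gave -1.07 (-1.08 to -1.06). The 6 months library gave -0.72 (-0.74 to -0.71) and the 12 months library -2.35 (-2.37 to -2.33). In HF-SC-like cells the ratio was -0.14, -0.56 and -2.20, so that inducible UMIs nearly equalled constitutive UMIs at P38. In IFE basal-like cells it was -1.93, -1.47 and -2.09. The ratio passed 0 only in Fibroblast-like cells at 6 months, at 0.35 (0.29 to 0.41), and the same class stood at -2.71 (-2.78 to -2.64) at 12 months. T cell-like cells had the lowest ratios of each library that held them, -3.08 at 6 months and -5.19 at 12 months. In the 10 classes compared at both ages, the 12 months value was the lower in each.

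**Figure D2:**
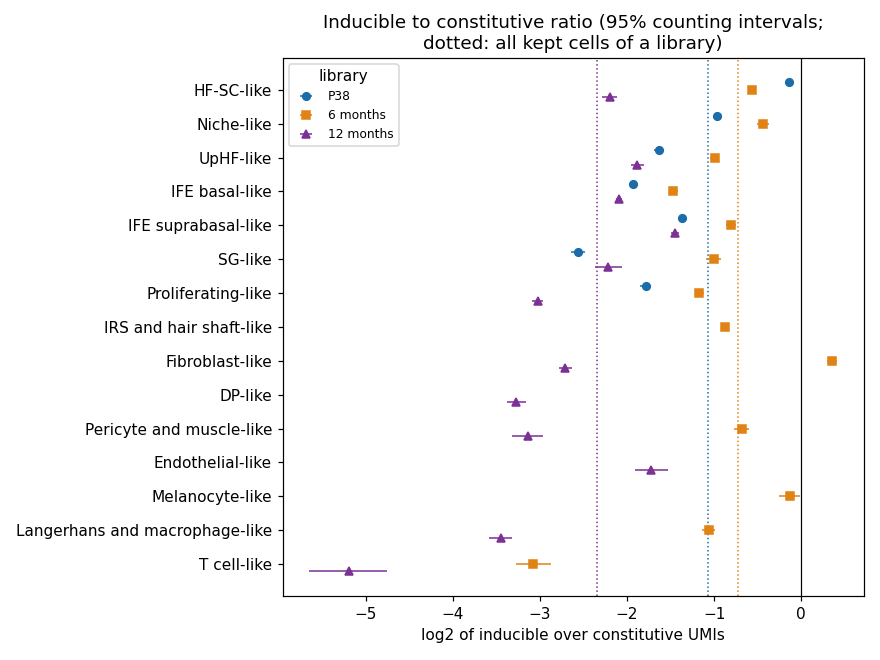
Log2 of inducible over constitutive UMIs by class, with 1 point a library, 95% counting intervals and a dotted line at each library's value over all kept cells. The 12 months points lie left of the 6 months points in every class measured at both ages, and T cell-like cells lie farthest left at -5.19.

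Classes were tested against each other on UMIs summed per class and library, with library as a term (edgeR quasi-likelihood test, Benjamini-Hochberg adjustment over 12602 genes). The p-values measure the scatter left between these sums after the class and library terms, pooled over all classes fitted (15 residual degrees of freedom). Sums of the same library were treated as independent, and the libraries differ in age, sex and stage. Fibroblast-like and T cell-like cells entered from 6 and 12 months only, while the IFE basal-like sum of P38 was also in the fit and bears on their contrasts. In HF-SC-like against IFE basal-like cells, 0 of the 10 genes passed by edgeR, 3 had an unadjusted p under 0.05 and DESeq2 called 1, beside 8.05% of all genes called higher and 7.34% called lower. The log2 fold changes were 1.40 ± 0.57 (SE) for Hspa1a (adjusted p = 0.104), 1.59 ± 0.56 for Hspa1b (adjusted p = 0.0607) and 1.38 ± 0.50 for Hsph1 (adjusted p = 0.0684), beside a median of 0.01 over all genes. The libraries went apart: the log2 ratio of Hspa1a was 2.88 at P38, 1.04 at 6 months and -0.08 at 12 months. Without the 12 months library Hspa1a stood at 2.08 (adjusted p = 0.0355), Hspa1b at 2.08 (adjusted p = 0.0447) and Hsph1 at 1.86 (adjusted p = 0.0254). That fit drops the library in which the ratio of Hspa1a was -0.08, and without P38 none of the 10 genes was called. Across the alternatives the adjusted p of Hspa1b ran between 0.00835 and 0.719. Immediate early genes, which many stimuli switch on within minutes, moved with these levels in HF-SC-like cells: their sum was 38554, 25462 and 22872 CPM of non-mitochondrial UMIs at the 3 ages, against 13757.5, 19193 and 33670 in IFE basal-like cells. Their part in the result was not tested.

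In the UpHF-like and IFE suprabasal-like classes the genes that passed were constitutive, 1 in each. In UpHF-like against IFE basal-like cells 1 gene passed, beside 9.75% of genes called higher and 9.19% called lower. Hspa8 had 1139, 898 and 715 CPM in UpHF-like cells, against 2756, 1879 and 1536 CPM in IFE basal-like cells, so every library showed it lower. Its log2 fold change was -1.04 ± 0.29 (adjusted p = 0.0144), which missed the threshold without P38 (adjusted p = 0.0866) or without 12 months (adjusted p = 0.0652). In IFE suprabasal-like against IFE basal-like cells 1 gene passed, beside 7.11% called higher and 7.03% called lower. This gene was Hsp90aa1, the stress-responsive isoform of cytosolic HSP90, although it is counted here as constitutive. It had 559, 331 and 312 CPM in suprabasal-like cells, against 969, 765 and 628 CPM in basal-like cells. The change of -0.92 ± 0.31 lay close to the threshold (adjusted p = 0.0464). It missed the threshold without shared barcodes or without the cells of highest doublet score (adjusted p = 0.0506 and 0.0501). It also missed it without P38 (adjusted p = 0.0813), without 6 months (adjusted p = 0.0881) and without 12 months (adjusted p = 0.208).

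Niche-like cells, the inner bulge layer next to the stem cells, were set against HF-SC-like cells and entered from P38 and 6 months only. The HF-SC-like sum of 12 months was also in the fit and bears on this contrast. By edgeR 0 of 10 genes passed, 0 had an unadjusted p under 0.05 and DESeq2 called 0, beside 1.66% called higher and 0.928% called lower. Hspa1b had 1038 and 1601 CPM in Niche-like cells, against 3649.7 and 2077 CPM among HF-SC-like cells. Hspa5, the endoplasmic reticulum HSP70, had 832 and 801 CPM in Niche-like cells, against 578 and 530.1 CPM among HF-SC-like cells, and was the only gene higher in Niche-like cells in both libraries (log2 fold change 0.60 ± 0.36, adjusted p = 0.458).

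Fibroblast-like cells differed from IFE basal-like cells in 3 genes, all lower, beside 20% of genes called higher and 15.2% called lower. Hspb1 had 228 and 75.1 CPM in Fibroblast-like cells, against 2667 and 2065 CPM in IFE basal-like cells (-4.15 ± 0.74, adjusted p = 0.000149). Dnajb1 had 137 and 144 CPM, against 514 and 644 CPM (-2.02 ± 0.56, adjusted p = 0.00723). Hsp90ab1 had 1703 and 1285 CPM, against 2506 and 2180.3 CPM (-0.71 ± 0.23, adjusted p = 0.018). The other inducible genes differed between the libraries. Hspa1a had a log2 ratio of 2.21 at 6 months and 0.84 at 12 months (1.53 ± 0.61, adjusted p = 0.0548), Hspa1b of 1.76 and -0.34 (-0.48 to -0.21) and Hsph1 of 2.30 and -0.04 (-0.72 to 0.60). Hspb1 passed under every alternative run, with adjusted p between 3.61e-08 and 0.0106. Dnajb1 missed the threshold without 6 months (adjusted p = 0.0523) and without 12 months (adjusted p = 0.0543), as did Hsp90ab1 (adjusted p = 0.0911 and 0.183).

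T cell-like cells differed from IFE basal-like cells in 7 genes, 2 higher and 5 lower, beside 11.5% of genes called higher and 15.3% called lower. The median over all genes was -0.49 on this scaling and -0.17 without TMM factors, and folds are read against it. Both higher genes were constitutive. Dnaja1, a J protein of the cytosol, stood in T cell-like cells at 1252 CPM (6 months) and 1924 CPM (12 months), against 410.4 and 261 CPM in IFE basal-like cells (1.78 ± 0.29, adjusted p = 8.51e-05). Hspa5 had 1293 and 2663 CPM, against 701 and 462 CPM (1.501 ± 0.36, adjusted p = 0.00342). The lower genes were Hspb1 (-4.98 ± 0.82, adjusted p = 9.16e-05), Hspa1b (-2.43 ± 0.72, adjusted p = 0.015), Hspa1a (-2.22 ± 0.73, adjusted p = 0.0278; no bound, since 1 of the T cell-like libraries is at 0), Dnajb1 (-1.68 ± 0.58, adjusted p = 0.034) and Hsp90ab1 (-0.73 ± 0.23, adjusted p = 0.0198). Dnaja1 and Hspb1 passed under every alternative run, and Hspa5 under all but the fit without 12 months (0.75, adjusted p = 0.108). Each of Hspa1a, Hspa1b, Dnajb1 and Hsp90ab1 missed it in 4 or more alternatives. Without 12 months Hspa1a had an adjusted p of 0.345, Hspa1b of 0.173, Dnajb1 of 0.326 and Hsp90ab1 of 0.439, and without 6 months Hspa1b had 0.0804, Dnajb1 0.098 and Hsp90ab1 0.0668. Without P38 Hsp90ab1 had 0.0682.

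**Figure D3:**
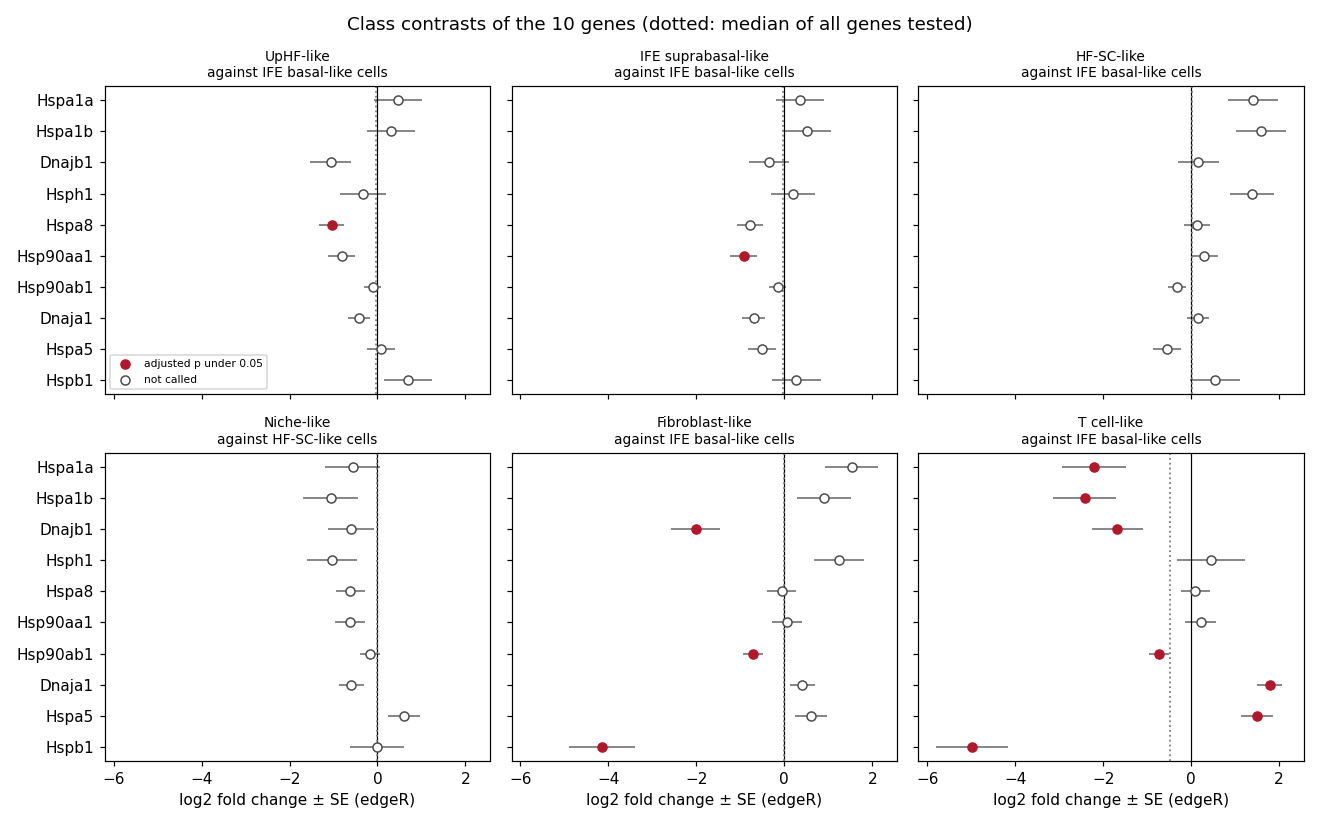
Log2 fold changes ± SE (edgeR) of the 10 genes in the 6 class contrasts, with filled points at adjusted p under 0.05, open points otherwise and a dotted line at the median of all genes tested. Filled points are 1 in the UpHF-like and suprabasal-like panels, 3 in the Fibroblast-like panel and 7 in the T cell-like panel.

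Further chaperone genes were read from fixed lists. All 8 genes of TRiC, the cytosolic chaperonin that folds actin and tubulin, were lower than in IFE basal-like cells both in Fibroblast-like cells (median -1.11, against -0.01 over all genes, of which 15.2% were lower) and in T cell-like cells (median -1.19, against -0.49 over all genes, of which 15.3% were lower). Of the 10 genes, Hspb1, Dnajb1 and Hsp90ab1 were also lower in both, but Hsp90ab1 in T cell-like cells stood at -0.73, not far from the median of -0.49. In Fibroblast-like cells 11 of 18 genes of endoplasmic reticulum folding and the unfolded protein response were higher and 0 lower (median 0.80), beside 20% of all genes higher. Among them were Hsp90b1, the HSP90 of that compartment (1.45 ± 0.23, adjusted p = 4.52e-05), and Dnajc3, a J protein that works with Hspa5 (1.69 ± 0.26, adjusted p = 2.33e-05), while Hspa5 itself stood at 0.61 ± 0.36 (adjusted p = 0.208). Of 21 genes around heat shock factor 1, 3 were higher and 4 lower there, shares near those of all genes (20% and 15.2%). The highest was Serpinh1, a collagen chaperone, at 1627 and 1973 CPM in Fibroblast-like cells, against 63.0 and 36.5 CPM in IFE basal-like cells (4.95 ± 0.61, adjusted p = 1.69e-06). In HF-SC-like cells 3 of these 21 were higher and 2 lower, again close to all genes (8.05% and 7.34%), with Serpinh1 among the higher ones (1.69 ± 0.50, adjusted p = 0.0258). Cryab, another small heat shock protein, was higher in HF-SC-like (3.64 ± 0.55, adjusted p = 9.29e-05), UpHF-like (3.83 ± 0.56, adjusted p = 4.44e-05), Fibroblast-like (3.44 ± 0.60, adjusted p = 0.000105) and IFE suprabasal-like cells (1.74 ± 0.55, adjusted p = 0.035). It had 105, 211 and 85.8 CPM in HF-SC-like cells, against 9.28, 6.30 and 7.06 CPM in IFE basal-like cells, and was not ordered by library as Hspb1 was. In T cell-like cells 8 of 14 immediate early genes were lower, Dusp1, Egr1 and Jun with the smallest p, and 1, Junb, was higher, beside 15.3% of all genes lower and 11.5% higher (median -1.38, against -0.49 over all genes).

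The ages were compared within 3 epithelial classes as ratios of CPM with exact intervals, a gene counting as different at 2-fold or more. In HF-SC-like cells at 6 months against P38, 6 of the 10 genes were lower and 0 higher, beside 4.32% of all genes lower and 9.81% higher. At 12 months against P38, 8 were lower and 0 higher in HF-SC-like cells, beside 8.99% lower and 11.8% higher. The log2 ratio of 12 months over P38 was -4.38 (-4.57 to -4.20) for Hspa1a, -3.02 (-3.15 to -2.90) for Hspa1b, -2.84 (-2.99 to -2.69) for Dnajb1 and -4.16 (-5.04 to -3.40) for Hsph1. Hspb1 followed at -3.59 (-3.67 to -3.51). The constitutive genes were graded: Hspa8 had -2.13, Hsp90aa1 -1.73 and Dnaja1 -1.27, while Hspa5 at -0.56 and Hsp90ab1 at -0.45 stayed within 2-fold. The median over all genes was 0.18. Of the 14 immediate early genes, 7 were lower by 2-fold or more in the same comparison (median -0.98).

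IFE basal-like and UpHF-like cells gave other values in the same libraries. At 6 months against P38 the only gene past 2-fold in either class was Hspa1b, higher by a log2 ratio of 1.18 in IFE basal-like cells (beside 8.82% of genes higher and 5.53% lower) and of 1.26 in UpHF-like cells (beside 9.43% higher and 7.28% lower). This depended on how classes were set: with clusters of each library in place of the marker gate (chosen after seeing the data), Hspa1a stood at 2.32 in IFE basal-like cells, against 0.17 with the gate, and at 1.85 in UpHF-like cells, against 0.41 with the gate. Hsph1 reached 1.14 in UpHF-like cells by clusters, and scaling by the median ratio of genes put Hspa1b of IFE basal-like cells just under 2-fold. At 12 months against P38, 3 genes were lower in IFE basal-like cells: Hspa1a at -1.43, Hsph1 at -1.59 and Dnaja1 at -1.19 (beside 10.7% higher and 10.7% lower). With the stricter gate Hspa1a was at -0.91 and no longer past 2-fold. In UpHF-like cells it was Hspb1 alone, at -1.004 (beside 17.9% higher and 11% lower), and by clusters it was Hspa5 alone, at -1.03, with Hspb1 at -0.93 and Hspa1a at 0.53, against -0.78 with the gate. Immediate early genes went the other way in these classes, with 10 of 14 higher by 2-fold or more in IFE basal-like cells (median 1.23) and 10 of 14 in UpHF-like cells (median 1.76). Between 12 and 6 months the inducible sum had a log2 ratio of -3.13 in Fibroblast-like cells, -2.65 in Langerhans and macrophage-like cells and -1.92 in T cell-like cells. The constitutive sum moved by -0.07, -0.27 and 0.19 in those classes.

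Individual cells were compared after thinning each to 3000 UMIs. The inducible genes were far more uneven between cells than the constitutive genes: the squared coefficient of variation in excess of counting noise was 0.82, 1.37 and 0.96 for the inducible sum of HF-SC-like cells, library by library, and 0.21, 0.28 and 0.29 for the constitutive sum. In IFE basal-like cells the inducible values were 2.02, 1.05 and 0.58, against constitutive values of 0.13, 0.05 and 0.08. The median HF-SC-like cell had 22, 7 and 2 inducible UMIs at the 3 ages, and the highest cells had 156, 75 and 20. At P38 the top 10% of these cells held 30.8% of the inducible UMIs, so that most of the level came from the other cells. In IFE basal-like cells the medians were 4, 5 and 2 and the highest cells had 102, 59 and 18, and at P38 the top 10% of cells held 40.6% of inducible UMIs. Fibroblast-like cells had a median of 11 at 6 months and 2 at 12 months. The thinning left out 8, 4 and 4 HF-SC-like cells and 72 UpHF-like cells of 6 months.

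**Figure D4:**
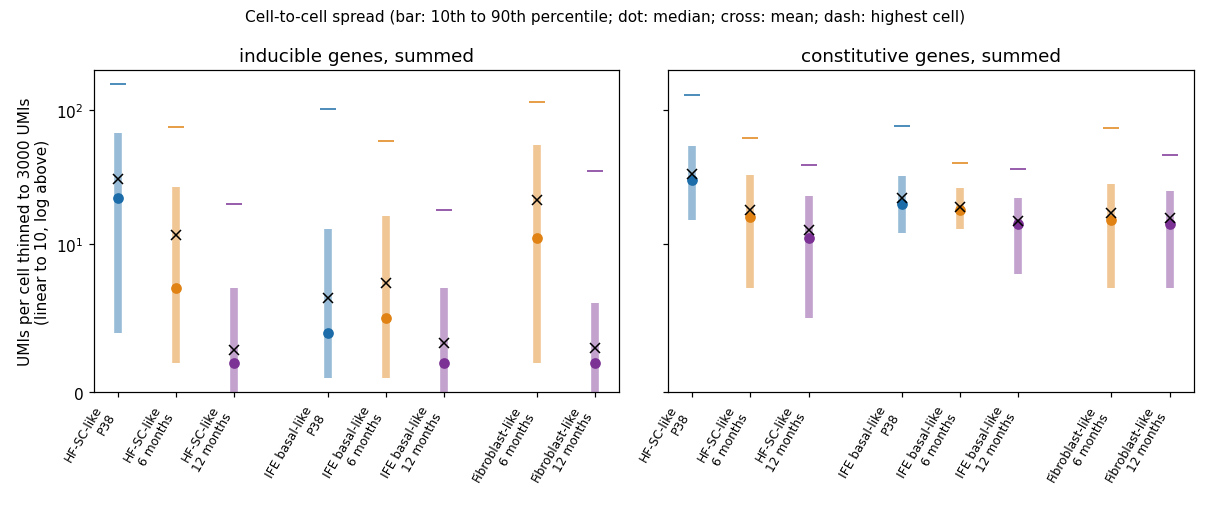
Inducible and constitutive UMIs per cell after thinning to 3000 UMIs, by class and library (axis linear to 10 and logarithmic above), with bars at the 10th to 90th percentile, dots at the median, crosses at the mean and dashes at the highest cell. HF-SC-like cells have inducible medians of 22, 7 and 2 UMIs at P38, 6 months and 12 months, and constitutive medians of 30, 16 and 11 UMIs.

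Within cells, Hspa1a and Hspa1b went together. Their Spearman correlation over cells was 0.79, 0.67 and 0.17 in HF-SC-like cells (319, 145 and 158 cells), 0.55, 0.50 and 0.17 in IFE basal-like cells and 0.74 and 0.36 in Fibroblast-like cells at 6 and 12 months. Low counts at 12 months bound these values, and the paralogs share sequence. Pairs of inducible genes had a median of 0.41 over 6 pairs in HF-SC-like cells at P38, and pairs of an inducible with a constitutive gene 0.24 over 20 pairs. In IFE basal-like cells at P38 these medians were 0.12 and 0.10, lower than in HF-SC-like cells of the same library. Inducible pairs stayed higher in HF-SC-like cells of 6 months (0.29, against 0.23) but were lower in those of 12 months (0.07, against 0.14). UpHF-like cells had 0.08, 0.14 and 0.06 for inducible pairs, library by library, against 0.17, 0.17 and 0.06 for pairs with a constitutive gene. Fibroblast-like cells had 0.26, against 0.26 (6 months), then 0.15, against 0.09 (12 months). The later IFE basal-like medians were 0.05 and 0.06, against 0.05 and 0.04. These correlations share the library and its depth and carry no test.

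Barcodes outside the filter were examined because broken cells often show high mitochondrial shares. As CPM of non-mitochondrial UMIs, the inducible sum of barcodes with 15% or more was 4957, 3568 and 2311 at P38, 6 months and 12 months, against 3666, 3822 and 1060 in kept cells. The constitutive sum was lower in such barcodes at each age: 5174, 4366 and 3557, against 7689, 6316 and 5404 in kept cells. By library, 7.01% of barcodes at P38, 17.3% at 6 months and 37.8% at 12 months had such a share. The 12 months barcodes of 30 to 60% had an inducible sum of 2699 and an immediate early gene sum of 56947 on this scale, against 1060 and 24630 in the kept cells of that library. The part of cell condition in the differences between libraries was not tested. Barcodes of 5000 genes or more, also left out, had an inducible sum of 1246, 3161 and 819.7 on this scale.

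**Figure D5:**
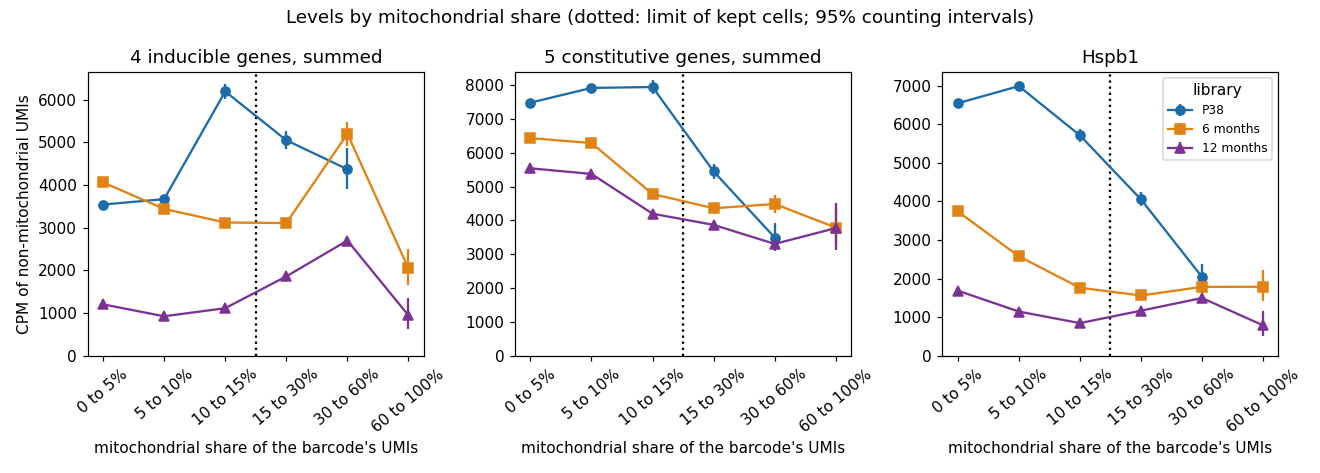
CPM of non-mitochondrial UMIs for the inducible genes, the constitutive genes and Hspb1 by the mitochondrial share of the barcode, with a line a library, 95% counting intervals and a dotted line at the limit of kept cells. The inducible line of 12 months reaches 2699 at 30 to 60%, while the constitutive lines are lower past the limit than below 5%.

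The genes most like the inducible set were ranked by Pearson correlation of centred log2(CPM + 5) over 32 class and library sums. Over all classes the first were Rcor3 at 0.72, App at 0.70, Jun at 0.69 and Plscr3 at 0.68, followed by Usp33, Spg20, Atxn2, Tmem59, Lamp2 and Evi5 down to 0.65. Among the 10 genes themselves Hspb1 had 0.51, Hspa8 0.27, Hsp90ab1 0.29, Hsp90aa1 0.24, Dnaja1 -0.22 and Hspa5 -0.43. Each inducible gene was also set against the mean of the other 3, which gave 0.87 for Hspa1b, 0.61 for Hspa1a, 0.42 for Hsph1 and 0.09 for Dnajb1. Dnajb1 thus had the class pattern least like that of the other 3. Over the 21 sums of epithelial classes alone none of the 10 leading genes was the same, Zbtb1 at 0.76 and Ubb at 0.74 came first, and Hspa8 stood at 0.66, Hsp90aa1 at 0.59 and Dnaja1 at 0.38. Dnajb1 against the other 3 stood at 0.32 there, still the lowest of the 4. These correlations are a description over sums that share 3 libraries.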

How the data were processed

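Per the labels and the file headers, the authors mapped reads to mm10 and deposited raw UMI counts per gene and barcode, made with Cell Ranger (6.1.2 in the P38 header and the submitters' processing notes, 6.0.0 in the headers of 6 and 12 months). Other ages and the chromatin data of the study were not used here. Kept cells had over 200 but below 5000 genes and a mitochondrial share under 15%. A cell entered a class with UMIs of at least 3 of its markers, a standardized marker score of at least 1 and a lead of at least 0.5 over every other class. In the 3 libraries 642, 974 and 858 cells lay within 0.25 of this lead. Doublets were not removed; Scrublet called 5, 0 and 3 cells and was judged not to have worked, so removal of 46, 181 and 235 cells with the highest scores was an alternative.

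Counts of classes with at least 20 cells were summed per library and tested with edgeR 4.0.16 (TMM, filterByExpr, quasi-likelihood test, class and library terms, adjusted p under 0.05), with DESeq2 1.42.0 as an alternative. All classes of an age come from the same library, and p-values measure the scatter left between sums after the class and library terms. Ages were compared by CPM ratios among genes with at least 20 UMIs, with exact 95% intervals and no test. Scripts were tested on simulated data. The members, class markers and gene lists were chosen with earlier results of these data known. All 10 genes were run in every result, but several results are written out for only some of them. Of the further lists only some are written out, and of those only some called genes. Analyses used Python 3.11.15, scanpy 1.11.5, scipy 1.17.1 and R 4.3.3.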

Additional observations from a re-analysis of the deposited data

Results flagged for a closer look

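Dnajb1 was flagged because its difference between HF-SC-like and IFE basal-like cells changed direction with the library. The log2 ratio of HF-SC-like over IFE basal-like CPM was 1.34 at P38 and 0.53 at 6 months, and -1.13 at 12 months. Dnajb1 had 2102, 741 and 294 CPM in HF-SC-like cells, against 829, 514 and 644 CPM in IFE basal-like cells. With 1 library an age the difference between ages was not tested.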

How the results depend on the processing

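No paired analysis was possible because each age has 1 library; in the class contrasts the library was a term, and its removal (no replicate block) left 0 calls in UpHF-like, 0 in suprabasal-like and 4 in T cell-like cells, where 1, 1 and 7 were called. Without TMM the calls were 2, 3, 2 in HF-SC-like (0 before) and 4. Without the low-count filter they were 2 in UpHF-like and 3 in HF-SC-like cells. DESeq2 gave 3 in suprabasal-like and 1 in HF-SC-like cells. The stricter gate gave 2, 2 and 1 in UpHF-like, suprabasal-like and HF-SC-like cells. Clusters of each library gave 0 in suprabasal-like and 3 in T cell-like cells and no value for Niche-like against HF-SC-like cells. Removal of the cells with the highest doublet scores gave 0 in suprabasal-like cells. So did removal of shared barcodes, which was chosen after seeing the data. Leaving out a library gave 0 to 1 calls in UpHF-like, 0 to 0 in suprabasal-like, 0 to 3 in HF-SC-like and 2 to 6 in T cell-like cells. The inducible to constitutive ratio was -1.14, -0.87 and -2.31 over all barcodes at P38, 6 months and 12 months. It was -1.09 and -2.37 at P38 and 12 months with a mitochondrial limit of 10%, and -1.06 at P38 without the cells of highest doublet score. At 6 months against P38, median scaling gave 0 and clusters 2 genes past 2-fold in IFE basal-like cells (1 before), and clusters 3 in UpHF-like cells (1 before); in HF-SC-like cells (6 before) they gave 7 and 5. At 12 months the stricter gate gave 2 in IFE basal-like cells (3 before), for which clusters gave no value. At 12 months against P38 in UpHF-like cells (1 before) removal of the cells with the highest doublet scores gave 0. CPM without mitochondrial and ribosomal protein genes gave 0 there and median scaling 2.

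Among values of single genes under the alternatives, 671 kept direction and call, 26 gained and 42 lost the call, and 31 changed sign, none of them called before or after. Without the library term the sign changed for Hsph1 in suprabasal-like (-0.067), Hspb1 in Niche-like (0.15), Hsp90aa1 in Fibroblast-like (-0.22) and Hspa8 and Hsp90aa1 in T cell-like cells (-0.23 and -0.072). Without TMM it changed for Hspa5 in UpHF-like (-0.035) and Hspa8 in Fibroblast-like cells (0.015), and with DESeq2 for the same Hspa8 (0.077). With clusters it changed for Hspa5 and Hsph1 in UpHF-like (-0.078 and 0.32), Dnaja1 in HF-SC-like (-0.053) and Hspa8 in Fibroblast-like cells (0.047). The limit of 10% gave 0.0015 for Hspb1 in Niche-like cells and the stricter gate -0.019 for Hsp90aa1 in Fibroblast-like cells. Leaving out a library gave ranges through 0. These were -0.11 to 0.25 for Hspa5 in UpHF-like, -0.29 to 0.49 for Hsph1 and -0.16 to 0.69 for Hspb1 in suprabasal-like cells. In HF-SC-like cells they were -0.58 to 0.84 for Dnajb1, -0.31 to 0.47 for Hspa8, -0.17 to 0.56 for Hsp90aa1 and -0.52 to 1.42 for Hspb1. In Niche-like cells they were -0.94 to 0.13 for Hspa1a and -0.34 to 0.27 for Hspb1. In Fibroblast-like cells they were -0.37 to 1.72 for Hspa1b, -0.049 to 2.07 for Hsph1, -0.42 to 0.23 for Hspa8, -0.015 to 0.14 for Hsp90aa1 and -0.055 to 0.71 for Dnaja1. In T cell-like cells they were -0.16 to 0.40 for Hspa8 and -0.15 to 0.56 for Hsp90aa1. The cause was not tested. A single library an age limits every statement on age, and Hsph1 rests on 14 UMIs in the HF-SC-like cells of 12 months.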
